A study of Mus musculus with 8 samples.

Results

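The genes described here were 10 genes of colony-stimulating factor (CSF), KIT and endothelin signalling, taken by name from a table of 53801 mouse genes. They were the ligand genes Csf1, Csf2, Csf3, Il34, Tslp, Kitl and Edn1 and the receptor genes Kit, Ednra and Ednrb. All 10 had reads and passed the filter on low counts. RNA was sequenced from stromal cells of MO5 tumors, which are subcutaneous melanomas grown from the B16-OVA line, a mouse melanoma line that carries the ovalbumin gene. The cells were sorted as CD45- CD31- cells positive for PDPN and PDGFRα, and then split by GFP into ADAM12+ cells (GFP+, 4 libraries) and ADAM12- cells (GFP-, 4 libraries). The methods of the study place both groups in ADAM12-GFP mice of the C57Bl/6 background, which were implanted at 8 to 12 weeks of age and which carry a bacterial artificial chromosome that drives Cre-Ires-GFP from Adam12 regulatory sequences. The sort is placed at day 8 after inoculation in the text of the study. The labels do not say whether a library came from 1 mouse or from pooled mice, so P values measure the spread between these libraries only. The question was whether the tumor stroma carries transcripts for growth factors of myeloid and stem cells, and whether ADAM12+ and ADAM12- cells differ in them.

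CSF1 and IL-34 are the ligands of the receptor CSF1R, through which monocytes and macrophages survive and divide. GM-CSF, the product of Csf2, and G-CSF, the product of Csf3, act on myeloid cells and on neutrophil precursors through receptors of their own, and TSLP acts on dendritic cells and lymphocytes through the pair CRLF2 and IL7R. KIT ligand, also called stem cell factor, is made by stromal cells and binds the receptor tyrosine kinase KIT on haematopoietic stem cells, mast cells and melanocytes. Endothelin-1 is a small vasoactive peptide cut from a precursor by ECE1, and its receptors EDNRA and EDNRB couple to G proteins. CSF1 and KIT ligand are made in membrane-bound and released forms, which counts per gene do not separate.

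The libraries held 883144 to 17535099 counted reads in ADAM12- cells and 8776925 to 31666734 in ADAM12+ cells, and ADAM12- replicate 3 was the shallowest. Adam12, the gene behind the reporter, ran from 1833 to 2938 normalised read counts in ADAM12+ and from 920 to 1693 in ADAM12- libraries (log2 fold change 0.75 ± 0.24 (SE), adjusted P = 0.0266 by DESeq2 and 0.0643 by edgeR). Its DESeq2 call was lost without ADAM12+ replicate 2 (adjusted P = 0.0792) or 4 (0.121), or ADAM12- replicate 3 (0.0709) or 4 (0.0852). A normalised read count is the number of reads on a gene divided by the size factor of its library. The fibroblast markers were present in every library: the 10 genes of that list, led by Col3a1, Col1a1 and Col1a2, took 2.78% to 5.41% of ADAM12- reads and 6.32% to 6.40% of ADAM12+ reads. The 15 melanocyte and melanoma markers, led by Dct, Tyrp1 and Pmel, took 0.285% to 0.874% of ADAM12- reads and 0.0383% to 0.120% of ADAM12+ reads. They are called melanocyte markers below, and do not separate melanocytes from the implanted MO5 melanoma cells. Of the 14 melanocyte markers that could be tested, 14 were lower in ADAM12+ cells, with a median log2 fold change of -3.07, and of the 10 fibroblast markers 7 were higher and 0 lower, with a median of 0.89. Over all genes tested, 4.66% were higher and 4.76% lower (DESeq2, adjusted P under 0.05). Of the other lists, 4 of 5 tested Schwann cell markers were lower and 0 higher, and of 7 tested pericyte markers Abcc9 was higher and Mcam lower, both named after their values were seen. The call of Abcc9 was lost without ADAM12+ replicate 2, 3 or 4 or ADAM12- replicate 1 or 2 (adjusted P = 0.105 to 0.169 by DESeq2). In such sorted bulk samples, fewer cells of a type and less RNA per cell cannot be told apart.

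**Figure D1:**
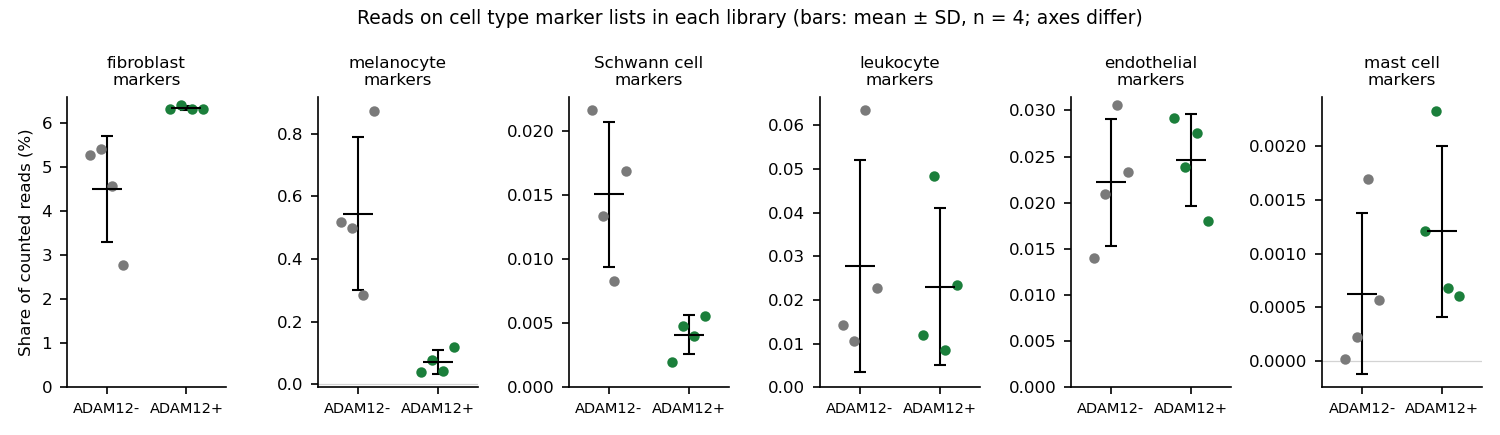
Share of counted reads (%, vertical axis) on lists of cell type markers in the 4 ADAM12- and 4 ADAM12+ libraries; points are libraries, bars the mean ± SD, and the axes differ between panels. Fibroblast shares ran from 6.32% to 6.40% in ADAM12+ libraries, above all ADAM12- libraries, melanocyte and Schwann cell shares lay the other way, and leukocyte, endothelial and mast cell shares overlapped.

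In the comparison of ADAM12+ with ADAM12- cells, 5 of the 10 genes were called at an adjusted P under 0.05 (DESeq2 across all genes). Of all 15283 genes tested, 9.42% were called either way, 4.66% as higher and 4.76% as lower. Csf1, Csf3, Kitl and Kit were higher in ADAM12+ cells and Edn1 was lower, whereas Csf2, Il34, Tslp, Ednra and Ednrb did not pass. The median log2 fold change over the 10 genes was 0.55, against -0.01 over all genes tested. edgeR's quasi-likelihood test, which called 5.11% of its genes, called 4 of the 10 and left out Kit. The 4 libraries of one group did not overlap with those of the other for 4 of the 10 genes (Csf1, Csf3, Kitl and Edn1), a pattern seen in 12.3% of all genes tested.

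**Figure D2:**
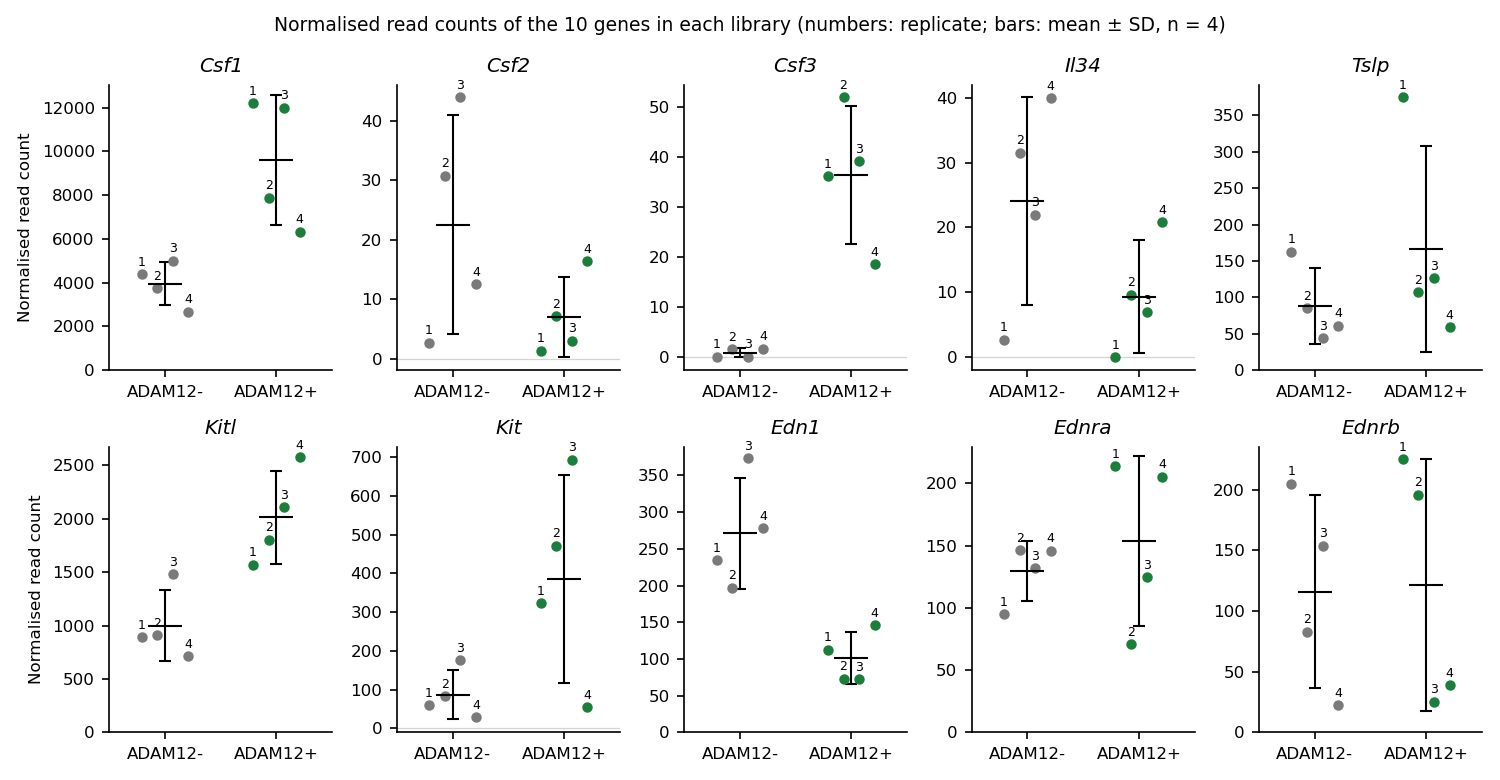
Normalised read counts (vertical axis) of the 10 genes in ADAM12- and ADAM12+ libraries; numbers are replicates and bars the mean ± SD (n = 4), with a separate axis for each gene. Csf1, Csf3, Kitl and Edn1 separate the groups, and Kit does so except for ADAM12+ replicate 4, at 54.7.

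Csf1 (chr3:107741048-107760469, minus strand) was the most abundant of the 10 genes in both groups. Its normalised read counts were 4381, 3760, 5010 and 2671 in ADAM12- replicates 1 to 4, and 12222, 7881, 11998 and 6338 in ADAM12+ replicates 1 to 4. Every ADAM12+ library was above every ADAM12- library, and replicate 4 was the lowest of both groups. The mean rose from 3956 ± 997 (SD, n = 4) to 9609 ± 2956 (SD, n = 4), with a fitted fold of 2.44 (log2 fold change 1.28 ± 0.27 (SE), adjusted P = 7.82e-05 by DESeq2 and 0.00787 by edgeR).

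Levels of different genes were compared per length, as RPKM, the reads of a gene per 1000 bases of exon and per 1000000 counted reads of the library. On this scale Csf1 stood at 75.1 ± 17.8 (SD, n = 4) in ADAM12- and 161 ± 40.6 (SD, n = 4) in ADAM12+ cells, above 98.7% and 99.3% of the 29005 genes with a length and a read. Il34, the gene of the other CSF1R ligand, stood at 1.27 ± 0.876 (SD, n = 4) and 0.444 ± 0.418 (SD, n = 4) RPKM. Within each library the level of Csf1 was 24.8 to 599 times that of Il34 in ADAM12- cells and 113 to 644 times in the 3 ADAM12+ libraries with an Il34 read. Csf1 was thus the main source of transcripts for CSF1R ligands in both groups.

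The 250 bases before the annotated start of Csf1, the member with the highest level, are shown with the matches to motif letters in capitals (RefSeq, GRCm38.p6, chr3:107760470-107760719, minus strand, which overlaps no annotated exon of the gene).
Csf1 upstream: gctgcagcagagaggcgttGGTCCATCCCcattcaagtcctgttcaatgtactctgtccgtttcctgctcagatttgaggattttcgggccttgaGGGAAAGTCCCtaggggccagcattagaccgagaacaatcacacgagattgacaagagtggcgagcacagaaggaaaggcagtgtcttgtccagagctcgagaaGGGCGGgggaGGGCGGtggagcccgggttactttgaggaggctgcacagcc
The capitals mark GGGANNNNCC, the letters of an NF-kB site (N is any base), from -231 to -222 on the minus strand, from -155 to -146 on the plus strand and from -154 to -145 on the minus strand, where the last pair overlap. They also mark GGGCGG, the letters of a GC box, from -51 to -46 and from -41 to -36. Both strands were searched and positions count back from the start site. At least 1 match was found upstream of 17.3% of 27025 promoters for the first motif and 32.9% for the second. The AP-1 letters TGANTCA, which 6.87% of promoters hold, were not in the Csf1 window. The core of the hypoxia response element, ACGTG, present in 16.6% of promoters, was not found there either. The letters of a TATA box, TATAAA, present in 13.0% of promoters, were likewise not found. A match describes letters only.

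Csf3 (chr11:98701263-98703629, plus strand) had the largest fold change of the 10 genes. Its raw counts were 0, 2, 0 and 3 in ADAM12- replicates 1 to 4 and 26, 124, 51 and 55 in ADAM12+ replicates 1 to 4. The normalised read counts were 0, 1.43, 0 and 1.58 against 36.1, 51.9, 39.2 and 18.5. All 4 ADAM12+ libraries carried Csf3 reads and lay above all 4 ADAM12- libraries, which together held 5 reads. The log2 fold change was 4.87 ± 0.96 (SE), with a 95% interval from 2.98 to 6.76 (adjusted P = 2.53e-05 by DESeq2 and 0.0207 by edgeR). ADAM12- replicate 3 was too shallow to bear on it, since 3 reads there would amount to a normalised count of 33.0. The same 3 reads would be 4.07 in ADAM12- replicate 1, which had none. Csf3 remained a low transcript, at 2.31 ± 0.937 (SD, n = 4) RPKM in ADAM12+ and 0.0552 ± 0.0644 (SD, n = 4) in ADAM12- cells (0.0333 without ADAM12- replicate 4), and Csf1 exceeded it 40.6 to 91.9 times in ADAM12+ libraries.

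Csf2 and Il34 had few reads, and their means pointed the other way from Csf1. Csf2 (chr11:54247271-54249667, minus strand) had normalised read counts of 2.71, 30.8, 43.9 and 12.6 in ADAM12- and 1.39, 7.11, 3.07 and 16.4 in ADAM12+ replicates 1 to 4. The groups overlapped, and the log2 fold change of -1.51 ± 1.04 (SE) did not pass (adjusted P = 0.438 by DESeq2), with an interval from -3.55 to 0.53. Il34 (chr8:110741829-110805924, minus strand) had counts of 2.71, 31.5, 22.0 and 39.9 in ADAM12- and 0, 9.62, 6.91 and 20.8 in ADAM12+ replicates. Its log2 fold change of -1.35 ± 1.09 (SE) did not pass (adjusted P = 0.535 by DESeq2), and its interval from -3.49 to 0.80 leaves room for a change in either direction. Replicate 1 of both groups was the lowest for Csf2 and for Il34. Without ADAM12+ replicate 4 the ADAM12+ means were 0.442 RPKM for Csf2 and 0.259 RPKM for Il34. The log2 fold changes were then -2.36 and -2.09, which did not pass (adjusted P = 0.258 and 0.386 by DESeq2).

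Tslp (chr18:32815383-32819797, plus strand) was detected in all 8 libraries. It had normalised read counts of 163, 85.3, 43.9 and 60.9 in ADAM12- and 375, 107, 127 and 59.0 in ADAM12+ replicates 1 to 4. Replicate 1 was the highest of each group and the ranges overlapped. The log2 fold change of 0.87 ± 0.59 (SE) did not pass (adjusted P = 0.431 by DESeq2), with an interval from -0.29 to 2.04. Per length it was the third of the 10 genes in ADAM12+ cells, at 10.8 ± 8.39 (SD, n = 4) RPKM. Without ADAM12+ replicate 1 this mean was 6.73 RPKM and the log2 fold change 0.10.

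Kitl (chr10:100015630-100100416, plus strand), the gene of stem cell factor, was the second most abundant of the 10. Its normalised read counts were 893, 909, 1483 and 714 in ADAM12- and 1571, 1802, 2106 and 2577 in ADAM12+ replicates 1 to 4. The groups did not overlap, although ADAM12- replicate 3, at 1483, came close to ADAM12+ replicate 1. The mean rose from 1000 ± 334 (SD, n = 4) to 2014 ± 435 (SD, n = 4), with a fitted fold of 2.05 (log2 fold change 1.04 ± 0.26 (SE), adjusted P = 0.00142 by DESeq2 and 0.0191 by edgeR). Its level was 17.1 ± 5.92 (SD, n = 4) RPKM in ADAM12- and 30.8 ± 7.94 (SD, n = 4) in ADAM12+ cells, above 92.2% and 96.5% of genes.

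Kit (chr5:75574916-75656722, plus strand), the receptor of stem cell factor, was higher in 3 of the 4 ADAM12+ libraries. Its normalised read counts were 59.7, 82.4, 176 and 28.4 in ADAM12- and 322, 471, 693 and 54.7 in ADAM12+ replicates 1 to 4. ADAM12+ replicate 4 lay below 3 of the ADAM12- libraries, so that the groups overlapped, and replicate 4 was the lowest of both groups. Within every replicate number the ADAM12+ library was the higher one, in replicate 4 at 54.7 against 28.4. The log2 fold change was 2.25 ± 0.65 (SE), called by DESeq2 (adjusted P = 0.0095) but not by edgeR (adjusted P = 0.0669) or limma voom (adjusted P = 0.276). The DESeq2 call was also lost on leaving out ADAM12- replicate 1 (adjusted P = 0.181), ADAM12- replicate 4 (0.0507), ADAM12+ replicate 1 (0.121) or ADAM12+ replicate 3 (0.110), with log2 fold changes that stayed between 1.81 and 2.76 over all 8 libraries left out in turn. With the replicate number as a block, the log2 fold change of Kit was 1.98 (adjusted P = 3.88e-06 by DESeq2). The labels do not state whether libraries of the same number are a pair. Kit was far below its ligand: Kitl exceeded it 12.7 to 38.0 times per length in ADAM12- libraries and 4.58 to 71.0 times in ADAM12+ libraries.

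Since melanocytes and mast cells carry KIT, their markers are given beside it. The melanocyte markers, which melanocytes and MO5 melanoma cells share, were lower in ADAM12+ cells, the opposite direction to Kit. Of the 7 mast cell markers, Fcer1a had no read in any library and 3 had an adjusted P by DESeq2, of which 0 were called and 0 had an unadjusted P under 0.05, while edgeR tested 1 of them and called 0. The log2 fold changes of these 3 markers ran from 1.23 to 1.73, with a median of 1.56, in the direction of Kit. Of the mast cell genes without an adjusted P, Cpa3 and Mcpt4, named after their values were seen, had 5 reads each over all ADAM12- libraries and 213 and 91 over all ADAM12+ libraries. Of these, 195 and 80 were in ADAM12+ replicate 2, and the log2 fold changes were 2.95 and -0.17. In all, these 7 genes took 1.3e-05% to 0.0017% of ADAM12- reads and 0.000603% to 0.00233% of ADAM12+ reads, and their part in the Kit counts was not tested.

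Edn1 (chr13:42301476-42307990, plus strand), the gene of endothelin-1, was the only one of the 10 called as lower in ADAM12+ cells. Its normalised read counts were 235, 197, 374 and 278 in ADAM12- and 112, 73.2, 72.2 and 146 in ADAM12+ replicates 1 to 4. Every ADAM12+ library was below every ADAM12- library. The mean fell from 271 ± 76.1 (SD, n = 4) to 101 ± 35.2 (SD, n = 4), which is lower by a fitted fold of 2.61 (log2 fold change -1.39 ± 0.34 (SE), adjusted P = 0.00142 by DESeq2 and 0.0373 by edgeR). Endothelial and keratinocyte markers, from other cells that make endothelin-1, took overlapping shares in both groups: 0.0140% to 0.0306% and 0.0180% to 0.0292% for the 11 endothelial genes, and 0.00034% to 0.00197% and 0.000332% to 0.000653% for the 8 keratinocyte genes, in ADAM12- and ADAM12+ libraries respectively. Of the endothelial genes, 1 of 8 tested was called, Vwf, named after its values were seen, which was lower (log2 fold change -3.30 ± 0.66 (SE), adjusted P = 3.77e-05 by DESeq2). An unadjusted P under 0.05 was found for 3 of the 8, which were Vwf, Cldn5 (log2 fold change -5.80, on 7 reads in all) and Kdr (1.14), the last pair also named after their values were seen. Of the 4 keratinocyte genes with an adjusted P by DESeq2, 0 were called and 0 had an unadjusted P under 0.05, while edgeR tested 2 of them and called 0. Their log2 fold changes ran from -3.51 to 0.91, that is in both directions. The median was -1.65, in the direction of Edn1. Krt5, a keratinocyte gene left without an adjusted P and named after its values were seen, had 37 reads over all ADAM12- libraries and 0 over all ADAM12+ libraries (unadjusted P = 0.0163 by DESeq2). It was picked from the 8 keratinocyte genes, of which those tested went both ways. The part of these cells, and of the melanocyte reads that fell along with Edn1, was not tested.

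The window before the start of Edn1, the gene that moved against the other called members, is shown in the same way (RefSeq, GRCm38.p6, chr13:42301226-42301475, plus strand, which overlaps no annotated exon of the gene).
Edn1 upstream: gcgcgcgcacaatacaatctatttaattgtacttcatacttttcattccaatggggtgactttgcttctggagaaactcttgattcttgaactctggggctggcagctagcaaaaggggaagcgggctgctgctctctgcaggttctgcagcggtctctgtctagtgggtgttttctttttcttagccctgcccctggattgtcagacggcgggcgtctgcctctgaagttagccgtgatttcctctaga
None of the 5 motif letter strings searched for Csf1 occurred here, hence the absence of capitals, which says only that these letters are not in this window.

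The endothelin receptor genes did not differ detectably. Ednra (chr8:77663031-77724464, minus strand) had normalised read counts of 94.97, 146, 132 and 146 in ADAM12- and 214, 71.1, 124 and 205 in ADAM12+ replicates 1 to 4. Its log2 fold change of 0.24 ± 0.41 (SE) did not pass (adjusted P = 0.822 by DESeq2), with an interval from -0.56 to 1.04. Ednrb (chr14:103814625-103844402, minus strand) had counts of 205, 83.1, 154 and 22.6 in ADAM12- and 225, 196, 25.4 and 38.9 in ADAM12+ replicates. It varied more within the groups than between them, and its log2 fold change of 0.08 ± 0.75 (SE) did not pass (adjusted P = 0.977 by DESeq2), with a wide interval from -1.39 to 1.55. Per length the receptors stood at similar levels, Ednra at 2.41 ± 0.549 (SD, n = 4) and 2.49 ± 1.07 (SD, n = 4) RPKM and Ednrb at 2.68 ± 1.77 (SD, n = 4) and 2.52 ± 2.12 (SD, n = 4) RPKM in ADAM12- and ADAM12+ cells. The ratio of Ednra to Ednrb ran from 0.361 to 5.04 over ADAM12- libraries and from 0.283 to 4.11 over ADAM12+ libraries, so neither receptor was uniformly the higher one.

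**Figure D3:**
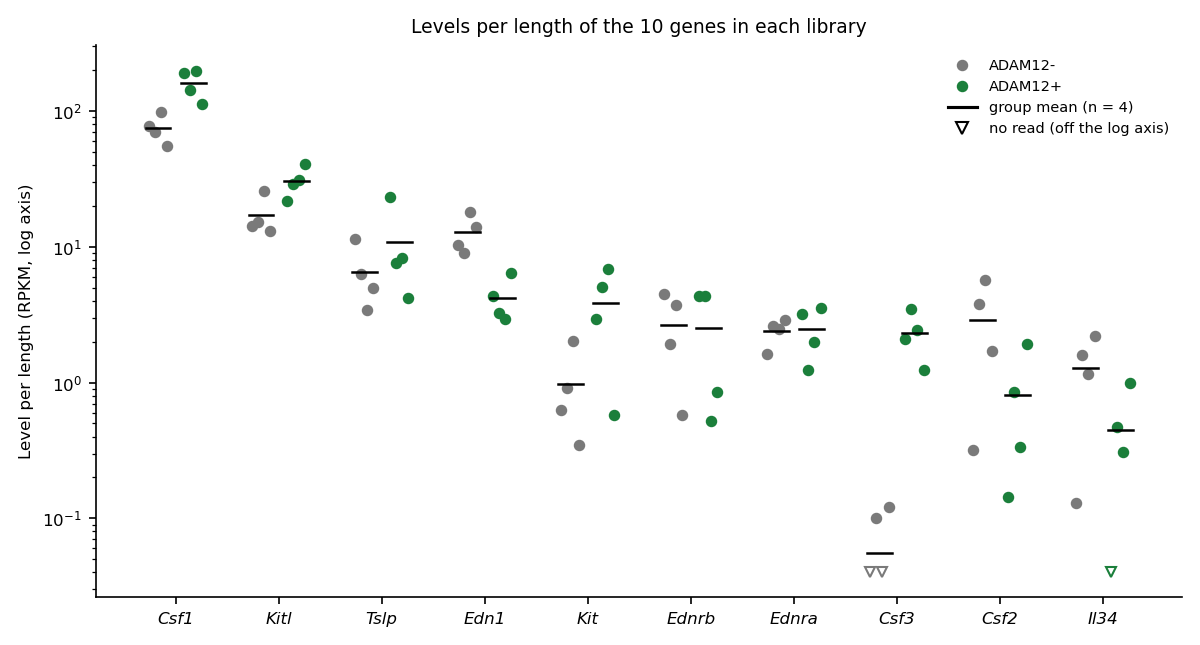
Level per length (RPKM, logarithmic vertical axis) of the 10 genes, ordered by their mean in ADAM12+ cells; points are libraries, lines group means (n = 4), and open triangles libraries with no read. Csf1 lies above every other gene in every library, Kitl has the next highest mean in ADAM12+ cells, and the lowest 3 means of ADAM12+ cells belong to Csf3, Csf2 and Il34.

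In order of level per length, ADAM12+ cells had Csf1 (161 RPKM), Kitl (30.8), Tslp (10.8), Edn1 (4.23), Kit (3.85), Ednrb (2.52), Ednra (2.49), Csf3 (2.31), Csf2 (0.815) and Il34 (0.444). In ADAM12- cells the order was Csf1 (75.1), Kitl (17.1), Edn1 (12.9), Tslp (6.53), Csf2 (2.87), Ednrb (2.68), Ednra (2.41), Il34 (1.27), Kit (0.979) and Csf3 (0.0552). Csf1 was separated from Kitl beyond the spread of the libraries in both groups. Most other neighbours were not: the ranges of Kitl and Tslp overlapped in ADAM12+ cells (21.8 to 41.0 and 4.18 to 23.1 RPKM), as did those of Kitl and Edn1 in ADAM12- cells (13.1 to 25.9 and 9.07 to 18.0 RPKM). With the length of the longest transcript in place of merged exons, Kit stood at 6.54 RPKM in ADAM12+ cells, above Edn1, and at 1.66 in ADAM12- cells. On that length Ednra, at 3.76 and 3.64 RPKM in ADAM12+ and ADAM12- cells, stood above Ednrb. Without ADAM12- replicate 3 the ADAM12- mean of Kit was 0.628 RPKM on merged exons.

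The receptors of the CSF, IL-34 and TSLP ligands were then examined in the same fit. Of 9 genes tested, 0 were called by DESeq2, and 0 of the 8 that edgeR tested were called by it. Of all genes tested, DESeq2 called 9.42% and edgeR 5.11%, so that 0 of 9 does not set the receptors apart. An unadjusted P under 0.05 by DESeq2 was found for 2 (Csf2ra and Csf2rb2), and the median log2 fold change was 0.10. Csf1r, the receptor of CSF1 and IL-34, had mean normalised read counts of 220 ± 214 (SD, n = 4) in ADAM12- and 152 ± 98.7 (SD, n = 4) in ADAM12+ cells (log2 fold change -0.46, adjusted P = 0.754 by DESeq2). Without ADAM12- replicate 3 the ADAM12- mean was 113 and the log2 fold change 0.42, so that the order of the groups rested on that library. For Csf2ra, the GM-CSF binding chain, the means were 39.8 ± 29.3 (SD, n = 4) and 111 ± 65.2 (SD, n = 4) (adjusted P = 0.223 by DESeq2). Csf2rb, the signalling chain, had means of 318 ± 232 (SD, n = 4) and 155 ± 99.8 (SD, n = 4) (adjusted P = 0.402 by DESeq2). The close paralog Csf2rb2 had a log2 fold change of 1.02, the other way (unadjusted P = 0.00872 and adjusted P = 0.0776 by DESeq2, but 0.000576 without ADAM12- replicate 2 and 0.0292 without ADAM12+ replicate 1), and whether reads were split between the pair was not tested, so both values are uncertain. Csf3r, the G-CSF receptor, had means of 16.7 ± 12.4 (SD, n = 4) and 15.7 ± 13.4 (SD, n = 4) (log2 fold change 0.10 ± 1.07 (SE), adjusted P = 0.98 by DESeq2). Its ADAM12+ mean was 10.2 without replicate 4, and its fold change ran from -0.54 to 0.59 on the log2 scale with each library left out. The TSLP receptor chains Crlf2 and Il7r had log2 fold changes of 0.24 ± 0.42 (SE) and -0.53 ± 0.81 (SE), with adjusted P = 0.8294 and 0.794 by DESeq2. For Il7r the log2 fold change was 0.07 without ADAM12- replicate 3. The list also held Ptprz1 and Sdc1, which did not pass (log2 fold change 0.05 and 0.47, adjusted P = 0.991 and 0.362 by DESeq2). Leukocytes carry most of these receptors, and their 14 markers took 0.0107% to 0.0634% of ADAM12- and 0.0086% to 0.0483% of ADAM12+ reads, and of the 11 that could be tested 0 were called by DESeq2, 0 by edgeR and 0 had an unadjusted P under 0.05.

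Of 8 tested genes in the list of other endothelin genes, 2 were higher in ADAM12+ cells and 0 lower, with a median log2 fold change of 0.20. Over all genes tested, 4.66% were higher and 4.76% lower. The 2 higher genes were Ece1 and Mme, whose products act on the peptide. Ece1, the protease that releases active endothelin, rose from 1619 ± 342 (SD, n = 4) to 2352 ± 296 (SD, n = 4) (log2 fold change 0.55 ± 0.19 (SE), adjusted P = 0.044 by DESeq2), a call that edgeR did not make (adjusted P = 0.0941). The DESeq2 call of Ece1 held only without ADAM12+ replicate 1 or ADAM12- replicate 3 among the 8 libraries left out in turn, with adjusted P up to 0.197. Mme, the gene of neprilysin, a peptidase that degrades endothelins and other peptides, rose from 249 ± 55.0 (SD, n = 4) to 750 ± 179.7 (SD, n = 4) (log2 fold change 1.60 ± 0.27 (SE), adjusted P = 2.33e-07 by DESeq2 and 0.00209 by edgeR). Edn2 and Edn3, the genes of the other endothelins, had 3 and 0 reads over all ADAM12- libraries and 31 and 5 over all ADAM12+ libraries, 26 of the Edn2 reads being in replicate 2. DESeq2 gave neither an adjusted P, and the unadjusted P was 0.379 for Edn2 and 0.788 for Edn3. Ece2, the gene of a related converting enzyme, named after its values were seen, did not pass (log2 fold change -1.96, adjusted P = 0.313 by DESeq2).

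Membrane CSF1 and KIT ligand are released by proteases. Of 6 genes for such proteases, their regulators and an inhibitor, 1 was higher, the inhibitor, and 1 lower, a protease (median log2 fold change -0.19). Over all genes tested, 4.66% were higher and 4.76% lower. Timp3, an inhibitor of metalloproteinases that include ADAM17, rose from 8345 ± 1400 (SD, n = 4) to 16308 ± 4374 (SD, n = 4) (log2 fold change 0.97 ± 0.23 (SE), adjusted P = 0.000958 by DESeq2 and 0.0175 by edgeR). Mmp9, a gelatinase, fell from 265 ± 96.8 (SD, n = 4) to 48.8 ± 53.7 (SD, n = 4) (log2 fold change -2.47 ± 0.64 (SE), adjusted P = 0.00284 by DESeq2 and 0.0476 by edgeR). Without ADAM12+ replicate 1 the ADAM12+ mean of Mmp9 was 22.5 and the log2 fold change -3.53.

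Of 13 tested genes for other haematopoietic growth factors and niche cytokines, 2 were higher and 0 lower (median log2 fold change 0.14). Cxcl12, the chemokine that holds haematopoietic stem cells in their niche, rose from 3290 ± 788 (SD, n = 4) to 6970 ± 552 (SD, n = 4) (log2 fold change 1.09 ± 0.21 (SE), adjusted P = 9.09e-06 by DESeq2 and 0.00454 by edgeR). Il6, a cytokine with wide effects on leukocytes, rose from 3021 ± 298 (SD, n = 4) to 6282 ± 1205 (SD, n = 4) (log2 fold change 1.06 ± 0.18 (SE), adjusted P = 2.2e-07 by DESeq2 and 0.00231 by edgeR). Downstream of KIT and the CSF receptors, 3 of 16 transducers and brakes were higher and 0 lower (median log2 fold change 0.24). They were Pik3r1, a regulatory subunit of PI3K (log2 fold change 0.73 ± 0.18 (SE)), Socs3, a brake on cytokine receptors (0.73 ± 0.20 (SE)), and the adaptor Shc1 (0.64 ± 0.21 (SE)), with adjusted P = 0.000942, 0.00534 and 0.0292 by DESeq2 and 0.0185, 0.0297 and 0.0986 by edgeR. The DESeq2 call of Shc1 was lost without ADAM12+ replicate 2, 3 or 4 or ADAM12- replicate 1 or 4 (adjusted P = 0.0685 to 0.170). Over these lists together, 8 of 52 tested genes were higher and 1 lower, against 4.66% and 4.76% of all genes tested, with a median log2 fold change of 0.14.

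Csf1, Csf3, Kitl and Kit were called as higher in ADAM12+ cells, and the share of reads on the fibroblast markers was also higher there. The comparison was therefore repeated with size factors taken from the 10 fibroblast markers, a scaling chosen after seeing the data, under which values are read relative to these markers. It lowered the median log2 fold change of all genes by 0.89, and called 41.6% of 16413 genes lower and 0.542% higher. Relative to these markers, Csf3 was still called as higher (log2 fold change 3.93 ± 1.09 (SE), adjusted P = 0.00169 by DESeq2). Edn1 was still called as lower (-2.30 ± 0.39 (SE), adjusted P = 1.66e-07), where most called genes were. The values for Csf1 (0.41 ± 0.23 (SE), adjusted P = 0.132), Kitl (0.18 ± 0.28 (SE), 0.621) and Kit (1.43 ± 0.63 (SE), 0.0546) were above 0 and no longer called. The 8 pathway genes called as higher were no longer called either, with values from -0.33 for Ece1 to 0.70 for Mme, whereas Mmp9 was still called as lower (-3.36, adjusted P = 4.48e-07), and 20 pathway genes were lower in all. For Csf1, Kitl and Kit a larger share of fibroblast RNA and a change within fibroblasts cannot be told apart in these libraries.

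**Figure D4:**
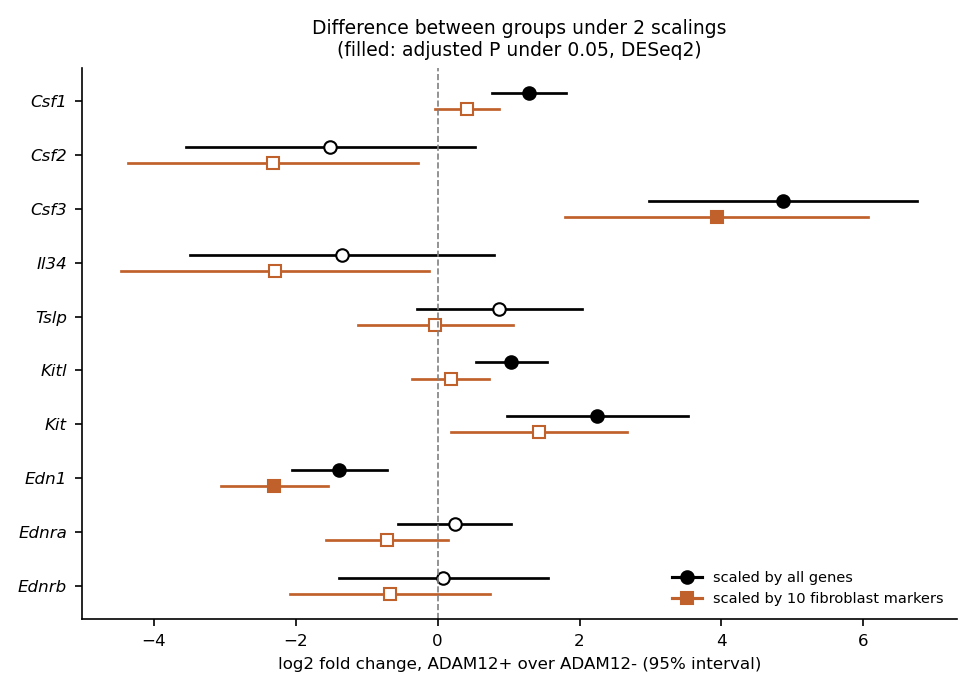
log2 fold change of ADAM12+ over ADAM12- cells (horizontal axis) with its 95% interval, scaled by all genes (circles) or by 10 fibroblast markers (squares); filled symbols have an adjusted P under 0.05 by DESeq2. Csf3 and Edn1 are filled under both scalings, Csf1, Kitl and Kit under the first alone.

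The genes with the pattern over the 8 libraries most like each member were found by the root mean square difference of centred log2(normalised read count + 1), among 8812 genes with a mean of at least 100. For Csf1 they were Egfr (0.141), Adamts2 (0.152) and Slco2a1 (0.163), and for Kitl they were Fam46a (0.160), Dtx4 (0.172) and Egr2 (0.200). The nearest genes of Edn1 were Dhx34 (0.286), Rfc5 (0.334) and Fmn1 (0.338). Ednra was nearest to Lrif1 (0.185), Dact1 (0.233) and Ifi44 (0.234), and Tslp to Scn2a (0.363), Brca2 (0.370) and Ebpl (0.387). Kit was nearest to Nexmif (0.564), Celf4 (0.578) and Ngfr (0.646), and Ednrb to Tmtc2 (0.682), Camkmt (0.799) and Mrc1 (0.898), which are larger differences than those of the nearest genes of Csf1 and Kitl.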

How the data were processed

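RNA of sorted stromal cells from MO5 tumors was sequenced in 8 libraries (4 GFP+, 4 GFP-), grouped by the labels. The authors prepared stranded total RNA libraries, trimmed reads with cutadapt 3.4, mapped them to GRCm38 with STAR 2.7.3a and counted reads per gene with featureCounts 2.0.1, using strand. The deposited table holds raw counts per gene and library, used for all values here. It also holds the authors' normalised score (count divided by a DESeq2 size factor), used only to check the size factors, and fold changes and P values, which were not used. Per-sample columns left unused numbered 0. Replicates of a group differed by more than sampling noise, with chi-square values of 9.68 to 73.0 times their degrees of freedom.

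Genes were fitted with DESeq2 1.42.0 (R 4.3.3; group as the only term, two-sided Wald test, Benjamini-Hochberg adjustment over all genes), and called at an adjusted P under 0.05. edgeR 4.0.16 (quasi-likelihood test, TMM) was given beside it, and limma 3.58.1 (voom) was an alternative. Intervals are 95%. Coordinates and exon lengths came from GENCODE M21 on the same assembly, which held 99.82% of identifiers. RPKM used merged exons. Code was tested on simulated data.

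The 10 members and all lists were chosen with earlier results of these data known. Named were the members, called genes of the pathway lists, the receptors Csf1r, Csf2ra, Csf2rb, Csf3r, Crlf2 and Il7r, and Edn2, Edn3 and Ece1. Also named were the 3 nearest genes of each member that averaged 100 or more normalised reads, and the 3 most abundant markers of the lists described. Others were named after their values were seen. The lists were receptors, endothelin genes, release proteases with their regulators and an inhibitor, niche factors, transducers, and fibroblast, melanocyte, Schwann cell, leukocyte, mast cell, endothelial, pericyte and keratinocyte markers. RefSeq upstream sequences were found for 7 of the 10 members. No molecular identifiers were used in counting. Values given as SD are the spread over libraries, and SE values and intervals come from the DESeq2 fit.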

Additional observations from a re-analysis of the deposited data

How the results depend on the processing

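Csf3 and Edn1 kept their direction and their call under all 16 alternatives, with adjusted P up to 0.0351 and 0.0373, and Csf1 and Kitl under 15 each, losing it under the fibroblast scaling alone (adjusted P = 0.132 and 0.621). Kit kept its direction under all 16 and its call under 9. The number of genes called was 1439 by DESeq2, 732 by edgeR, 844 at an adjusted P under 0.01, 968 to 1825 with each library left out, and 6914 under the fibroblast scaling (89 higher, 6825 lower), which leaves 2 of the 10 members called in place of 5, and 0 pathway genes higher and 20 lower in place of 8 and 1. With each library left out, 4 to 5 members and 7 to 11 pathway genes were called. Uncalled log2 fold changes changed sign for Ednra with limma voom (-0.0082) and the fibroblast scaling (-0.71), for Tslp under that scaling (-0.0306), and for Ednrb under that scaling (-0.67) and without ADAM12- replicate 2 (-0.056) or 4 (-0.28) or ADAM12+ replicate 1 (-0.39) or 2 (-0.26), the range over all libraries left out being -0.39 to 0.57; the sign changes under the fibroblast scaling go with its shift of -0.89 in all genes, and the cause of the others was not tested. The longest transcript in place of merged exons raised levels beyond 1 SD for Csf1 (94.99 RPKM in ADAM12- and 204 in ADAM12+), Ednra (3.64 and 3.76) and Kit in ADAM12+ cells (6.54), and moved Kit in ADAM12- cells from 0.979 to 1.66.

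The replicate number as a block gave 1470 genes, 5 members and 9 pathway genes called. In that fit the adjusted P by DESeq2 was smaller for Csf1 (1.36e-17), Kitl (0.000458) and Kit (3.88e-06). It was larger for Csf3 (0.000969) and Edn1 (0.00164). The labels do not state whether libraries of the same number are a pair, so the block was kept as an alternative. Libraries of the same number had correlations of their deviations from the group means from -0.15 to 0.24 over 14173 genes. Of the 8 libraries, 4 were closest to their own number. Depth limits Csf2, Csf3 and Il34 most, since 3 reads in ADAM12- replicate 3 equal 33.0 normalised counts.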

Other observations

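Among genes that average 10 or more normalised reads, Kit lies between Pdgfra, the receptor used for the sort, and Kdr on chromosome 5, and the values of these neighbours, chosen after they were seen, are given for a closer look. Pdgfra, the platelet-derived growth factor receptor that marks fibroblasts, had normalised read counts from 4706 to 7054 in ADAM12- and from 12812 to 16246 in ADAM12+ libraries (log2 fold change 1.32, adjusted P = 1.93e-12 by DESeq2 and 0.00105 by edgeR). Kdr, the gene of VEGF receptor 2, had 306 to 659 in ADAM12- and 288 to 1912 in ADAM12+ libraries (log2 fold change 1.14), and it did not pass (adjusted P = 0.107 by DESeq2, but 0.000802 without ADAM12+ replicate 4). Of the genes that flank these 3 and average 10 or more normalised reads, Srd5a3, next to Kdr, did not pass (log2 fold change 0.11, adjusted P = 0.946 by DESeq2, with values from -0.27 to 0.54 with each library left out). The predicted gene Gm19583, which lies just before Pdgfra, was called by DESeq2 (log2 fold change 4.98, adjusted P = 0.0442), with means of 0.697 in ADAM12- and 33.1 in ADAM12+ cells and overlapping groups. Its raw counts were 0, 1, 106 and 151 in ADAM12+ replicates 1 to 4, so that 2 libraries held nearly all its reads. Without replicate 3 the ADAM12+ mean of Gm19583 was 17.03. The gene was no longer called without ADAM12- replicate 1, 2 or 4 (adjusted P = 0.0563, 0.0879 and 0.144 by DESeq2), and had no adjusted P without ADAM12+ replicate 3 or 4. No test links these genes.

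Il11, a cytokine of the IL-6 family on the niche factor list that was not called, was also named after its values were seen. Its mean was 111 in ADAM12- and 51.4 in ADAM12+ cells (log2 fold change -1.11, adjusted P = 0.0755 by DESeq2, 0.0473 without ADAM12+ replicate 4, and 0.257 by edgeR). Of the endothelin, CSF and niche ligands, Edn1 was the single one called as lower.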
